A study of Rattus norvegicus with 232 samples.

Results

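10 interferon-stimulated genes were followed across the brains of the Hybrid Rat Diversity Panel: Irf7, Ifit2, Ifit3, Mx1, Mx2, Oas1a, Isg15, Rsad2, Ifi27 and Bst2. They were taken by name, with earlier results of these data known, and all 10 were among the 20859 genes of the gene-level table used here. That table held 214 libraries of rRNA-depleted total RNA from 197 untreated rats of 74 inbred strains, with 3 rats in 54 strains, 2 in 15 and 1 in 5. 88 rats came from the 30 strains of the HXB/BXH recombinant inbred family, whose progenitors are BN-Lx/Cub and SHR/OlaIpcv, and 43 rats came from 19 strains of the FXLE/LEXF family, whose progenitors are F344/Stm and LE/Stm. The other 66 rats were from 25 inbred strains, the progenitors among them. The authors' paper states that the HXB/BXH rats and their progenitors were kept at a Czech institute, with brain stored in liquid nitrogen. It gives Charles River or Envigo as the source of its other inbred strains, with brain kept in RNAlater. Between these groups strain therefore cannot be told apart from source and storage, and the paper gives no source for strains added later. Every group was a strain with no treatment, allele or agent added; the rats were young adults, and the labels gave the sex as male for 148 of all 232 samples and named no other sex. RNA was taken from whole brain, of which one hemisphere was used, so the levels are averages over all cell types, and fewer cells of a type and less RNA per cell cannot be told apart. The levels are on the authors' log2 scale, where a difference of 1 unit is a 2-fold difference, and since they are not per gene length they were compared between rats for a gene and not between genes.

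Interferon-stimulated genes are the antiviral program that type I interferons switch on. Interferon binds its receptor, the JAK kinases are activated, and a complex that contains IRF9 then binds interferon-stimulated response elements in promoters. IRF7 is the transcription factor that amplifies interferon production, and the other members are effectors: the MX proteins are dynamin-like GTPases that block viral replication, OAS1A makes the second messenger that activates RNase L, the IFIT proteins bind foreign RNA, ISG15 is a ubiquitin-like modifier, RSAD2 (viperin) makes a chain-terminating nucleotide, IFI27 is a small mitochondrial membrane protein and BST2 (tetherin) holds budding virions at the cell surface. In unchallenged brain the program runs at a low, tonic level, with microglia among the cells that express it.

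Since the members are grouped by a shared kind of regulation, their promoters are shown first. RefSeq promoters of GRCr8 were held for 7 of the 10 members, and the 250 bases before the start of transcription were searched on both strands for GAAANNGAAA, the core of the interferon-stimulated response element, which reads TTTCNNTTTC on the other strand. The motif was found in 6 of the 7 and in 1140 of 33469 promoters of all genes (3.41%). These 6 are printed 5′ to 3′ in the direction of transcription, ending at the base before the start, with every match in capitals, so that its place can be seen. The first base of the match lay 69 bases before the start in Irf7, 44 in Ifit3, 147 in Rsad2, 169 and 84 in Ifi27, 41 and 35 in Oas1a, and 131 and 125 in Bst2, where the pairs of matches in Oas1a and Bst2 overlap. The promoter of Mx1 held no match in this window.
Irf7, GRCr8 chr1:205800024-205800273, minus strand: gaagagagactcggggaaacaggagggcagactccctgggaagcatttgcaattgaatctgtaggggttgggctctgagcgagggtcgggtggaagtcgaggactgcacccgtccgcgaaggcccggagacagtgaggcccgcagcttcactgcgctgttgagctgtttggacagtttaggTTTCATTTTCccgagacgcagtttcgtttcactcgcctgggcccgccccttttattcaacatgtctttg
Oas1a, GRCr8 chr12:41330216-41330465, plus strand: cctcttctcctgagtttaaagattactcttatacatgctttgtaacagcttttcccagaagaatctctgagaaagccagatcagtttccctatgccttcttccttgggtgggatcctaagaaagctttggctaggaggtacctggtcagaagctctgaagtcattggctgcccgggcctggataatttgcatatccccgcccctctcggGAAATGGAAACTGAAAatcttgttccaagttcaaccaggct
Ifit3, GRCr8 chr1:241527076-241527325, plus strand: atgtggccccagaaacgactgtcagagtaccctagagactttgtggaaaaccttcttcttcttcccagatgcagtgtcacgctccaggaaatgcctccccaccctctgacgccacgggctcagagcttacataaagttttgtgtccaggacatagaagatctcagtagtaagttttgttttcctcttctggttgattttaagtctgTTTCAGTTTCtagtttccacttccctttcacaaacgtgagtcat
Ifi27, GRCr8 chr6:128355062-128355311, plus strand: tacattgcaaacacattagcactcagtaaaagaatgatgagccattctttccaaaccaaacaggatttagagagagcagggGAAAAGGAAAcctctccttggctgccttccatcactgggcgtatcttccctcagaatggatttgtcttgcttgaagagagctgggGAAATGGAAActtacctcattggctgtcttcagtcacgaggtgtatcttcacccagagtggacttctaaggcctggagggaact
Rsad2, GRCr8 chr6:48788121-48788370, minus strand: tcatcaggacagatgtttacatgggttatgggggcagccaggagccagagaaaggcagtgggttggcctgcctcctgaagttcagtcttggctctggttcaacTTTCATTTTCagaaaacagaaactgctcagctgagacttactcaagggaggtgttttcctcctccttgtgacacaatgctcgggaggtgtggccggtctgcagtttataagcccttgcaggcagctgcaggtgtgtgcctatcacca
Bst2, GRCr8 chr16:18254968-18255217, minus strand: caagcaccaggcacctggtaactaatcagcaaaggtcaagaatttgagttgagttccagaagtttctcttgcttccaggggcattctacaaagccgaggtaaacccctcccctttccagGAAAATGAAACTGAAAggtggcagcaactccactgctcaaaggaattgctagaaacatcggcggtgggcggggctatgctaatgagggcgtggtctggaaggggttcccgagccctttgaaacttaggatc

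The defining markers of brain were present throughout: the mean log2 level of 8 neuronal genes lay between 13.4 and 13.9 in all rats, that of 7 astrocyte genes between 13.5 and 13.9, and that of 12 microglial genes between 9.04 and 9.68, whereas 10 lymphocyte genes lay between 3.60 and 3.99. The only LE/Stm rat stood apart, with a mean level of 17.2 over 10 liver genes where the median rat was at 7.12 and the next at 12.3. It entered as the LE/Stm progenitor, and its values are therefore given as those of 1 rat. The mean of 4 Y-linked genes was 7.60 in HXB17/Ipcv animal 2 and 7.79 to 7.83 in the 3 rats labelled LEW/Crl, and 8.20 to 9.33 in all other rats. Sequencing was done in 17 batches, and for 62 of 74 strains the rats were spread over more than 1 of them. More than 1 library was present for 3 rats: SHR/OlaIpcv animal 1 with 12 libraries, SHR/OlaIpcv animal 4 with 6 and BN-Lx/Cub animal 3 with 2. Libraries of a rat were averaged, so that the rat was the replicate.

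All 10 members differed between strains. Mx2 and Irf7 had the largest shares of their variance between strains, and Ifit2 and Bst2 the smallest. Strain explained an R2 (the share of variance over the 197 rats) of 0.872 for Mx2, 0.818 for Irf7, 0.788 for Oas1a, 0.768 for Ifi27, 0.708 for Mx1, 0.674 for Isg15, 0.672 for Rsad2, 0.660 for Ifit3, 0.564 for Ifit2 and 0.510 for Bst2. With 74 strains and 197 rats an R2 of about 0.372 arises with no strain effect, and the share of variance between strains corrected for this was 0.798 for Mx2, 0.712 for Irf7, 0.664 for Oas1a, 0.632 for Ifi27, 0.537 for Mx1, 0.483 for Isg15, 0.479 for Rsad2, 0.460 for Ifit3, 0.307 for Ifit2 and 0.220 for Bst2. By limma's F-test with Benjamini-Hochberg adjustment over all genes, the strain effect was called for 10 of 10 members, against 37.3% of all genes, with adjusted p-values from 4.69e-30 for Mx2 to 0.00810 for Bst2. The median R2 over all genes was 0.451, and that of the members was 0.691. In the order of R2 over all genes Mx2 stood at the 99.5th percentile, Irf7 at the 98.8th, Ifit2 at the 85.6th and Bst2 at the 74.5th. The calls for Ifit2 and Bst2 were the fragile ones. Ifit2 missed the threshold without the animals numbered 1 (limma adjusted p = 0.215) or 2 (0.132), and Bst2 did so without the animals numbered 1 (0.311), 2 (0.0685) or 3 (0.0521).

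The spread was then divided by level. Within strains the SD ranged from 0.201 for Oas1a to 0.287 for Ifit3 (123 degrees of freedom). The SD of the 74 strain means ran from 0.182 for Ifit2 to 0.433 for Mx2, and was above the within-strain SD in 8 of 10 members, Ifit2 and Bst2 being the exceptions. Repeated libraries of the same rat had an SD (17 degrees of freedom) of 0.142 for Mx1, 0.144 for Mx2 and 0.202 for Irf7, below the spread within strains. For Oas1a (0.261), Isg15 (0.283), Bst2 (0.300) and Ifi27 (0.328) the libraries of 1 rat differed by more than the rats of 1 strain did. Each repeated library of a rat was in another batch, and over all genes 48.8% had a library SD above the within-strain SD, so that 4 of 10 members is near the background. The library SD was below the between-strain component of SD, which leaves out the spread within strains, in 6 of 10 members. It was above it in Ifit2 (0.175 against 0.135), Isg15 (0.283 against 0.243), Ifi27 (0.328 against 0.309) and Bst2 (0.300 against 0.151). For this count and for the 8 of 10 members above, the share over all genes was not taken. Over all genes the median share of variance between strains was 0.126. The 12 libraries of SHR/OlaIpcv animal 1 ranged for Ifi27 from 9.29 through a median of 10.24 to 10.64, where the strain means ranged from 9.57 to 10.95. For Mx2 the same libraries ranged from 10.65 through 10.87 to 11.19, where the strain means ranged from 9.66 to 11.24.

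**Figure D1:**
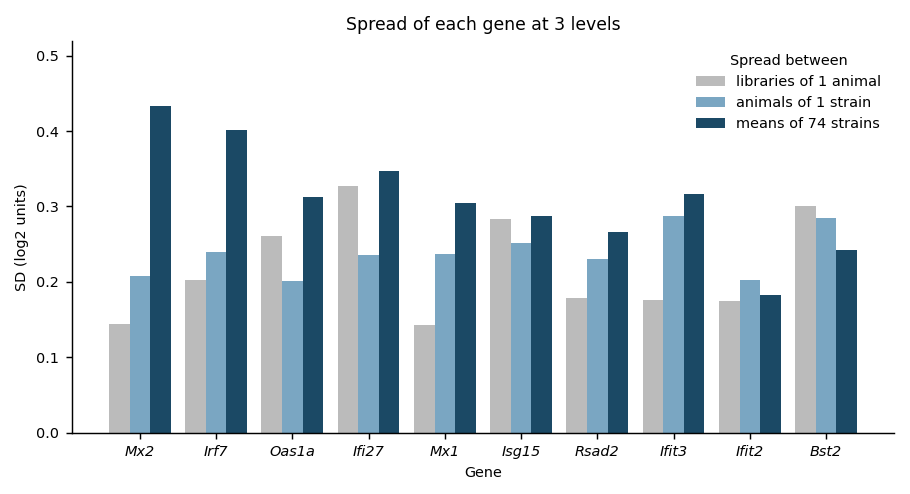
SD on the log2 scale (y axis) for each of the 10 genes (x axis), between libraries of the same rat (3 rats with 20 libraries, grey), between rats of the same strain (197 rats in 74 strains, light blue) and between the 74 strain means (dark blue). The strain means of Mx2 and Irf7 spread furthest over the other levels (SD 0.433 and 0.402), whereas for Bst2 the libraries of 1 rat (0.300) spread more than the strain means (0.243).

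Irf7, the transcription factor, was highest in SHR/OlaIpcv, where the 2 rats measured 8.52 and 8.48. It was followed by GK/FarMcwi, a model of spontaneous type 2 diabetes, with 8.33, 8.48 and 8.49, and by HXB2/Ipcv with 8.35 and 8.47. These neighbours overlapped. The lowest strains with 2 or more rats were HXB23/Ipcv with 6.83, 6.95 and 7.12, HXB5/Ipcv with 6.77, 6.91 and 7.37, and HXB27/Ipcv with 6.79, 7.17 and 7.18, which overlapped as well. The strain means of Irf7 thus spanned 6.97 ± 0.150 (SD, n = 3) to 8.50 ± 0.0313 (n = 2), a 2.90-fold range. These SDs are not comparable, since the SHR/OlaIpcv rats are means of 12 and 6 libraries and each HXB23/Ipcv rat has 1. The libraries of the 2 SHR/OlaIpcv rats had SDs of 0.182 and 0.251. Rats of a strain could still lie far apart: HXB25/Ipcv held rats at 6.85, 7.12 and 8.07, and BXH9/Cub at 7.21, 8.01 and 8.34. SHRSP/A3NCrl, the stroke-prone relative of SHR, had rats at 7.50 and 8.06, both below either SHR/OlaIpcv rat.

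Mx2 was highest in HXB22/Ipcv with 11.19, 11.22 and 11.30 and in WKY/NCrl, the normotensive Wistar-Kyoto strain, with 10.98, 11.18 and 11.52. It was lowest in HXB1/Ipcv with 9.47, 9.68 and 9.82 and in SR/JrHsd, the salt-resistant Dahl strain, with 9.44, 9.72 and 9.88. The strain means spanned 9.66 ± 0.177 (SD, n = 3) to 11.24 ± 0.0555 (n = 3), a 2.99-fold range. In Mx2 related strains did not always sit together: SS/JrHsd, the salt-sensitive Dahl strain, had rats at 10.25, 10.26 and 10.38, all above the 3 rats of SR/JrHsd. The rats of LEW/Crl (9.90, 9.95 and 10.39) overlapped those of LEW/SsNHsd (10.13, 10.18 and 10.22). Irf7 did not separate the Dahl strains, with 7.69, 7.98 and 8.23 in SS/JrHsd and 7.76, 8.05 and 8.37 in SR/JrHsd.

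**Figure D2:**
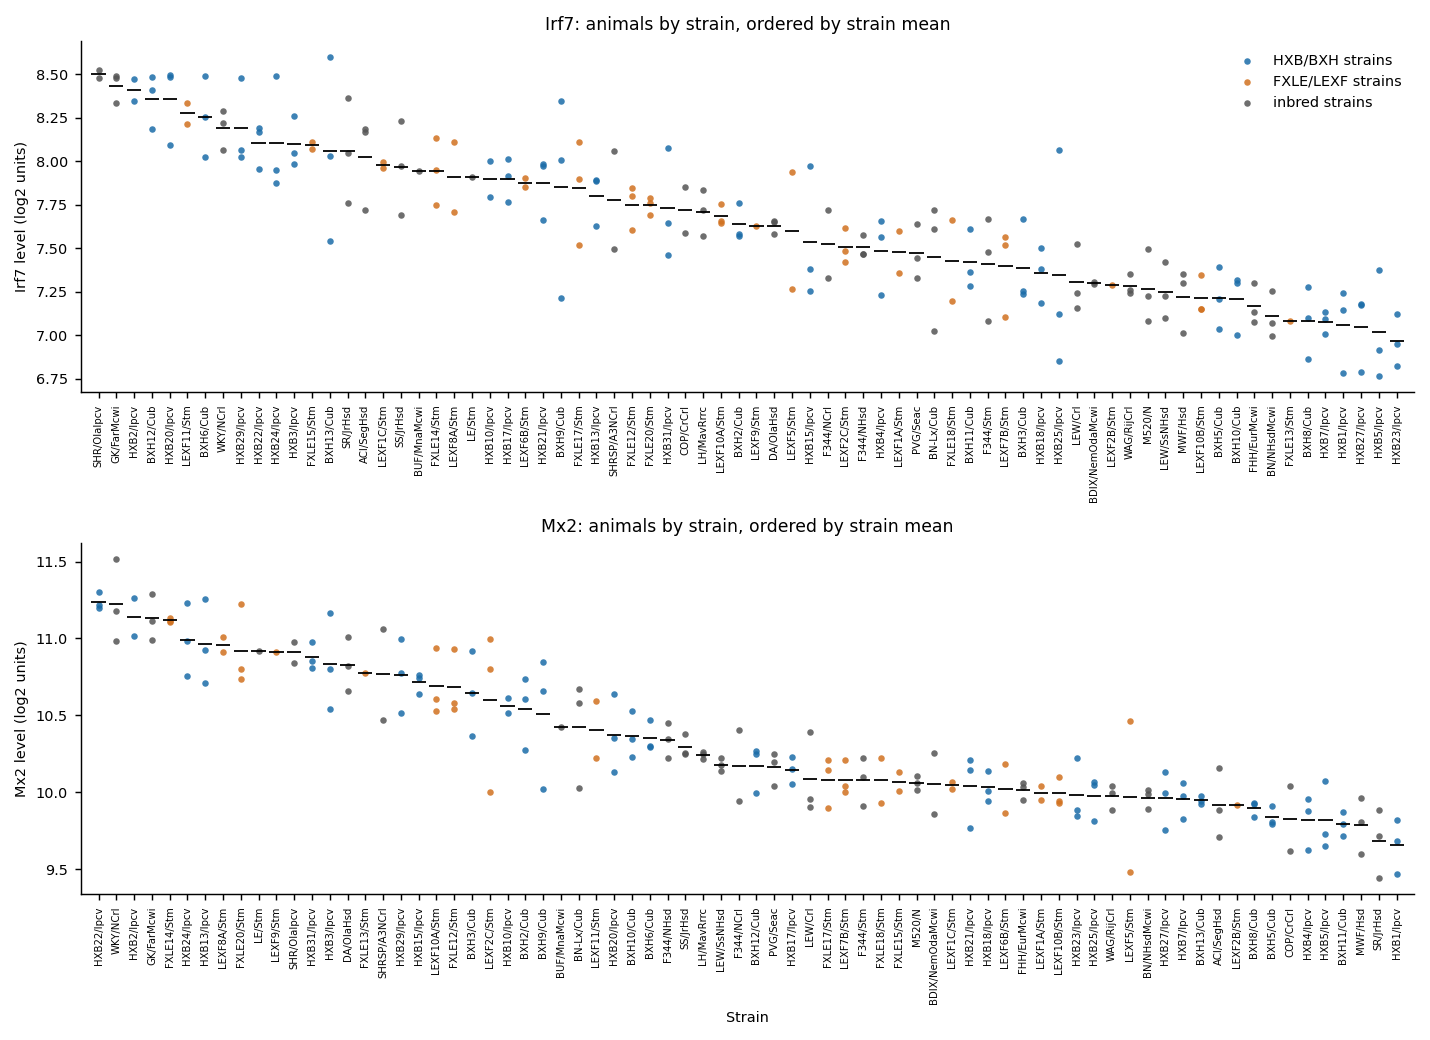
Log2 level (y axis) of Irf7 (upper panel) and Mx2 (lower panel) in each rat, by strain (x axis, ordered by the strain mean). Points are rats, blue for HXB/BXH, orange for FXLE/LEXF and grey for the inbred strains, and black lines are strain means; Irf7 runs from 8.50 in SHR/OlaIpcv to 6.97 in HXB23/Ipcv and Mx2 from 11.24 in HXB22/Ipcv to 9.66 in HXB1/Ipcv.

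Some of the other effectors shared an end strain with Irf7 or Mx2, and others did not. Mx1 was highest among strains with 2 or more rats in WKY/NCrl (7.47, 7.67 and 7.79) and lowest in HXB27/Ipcv (6.08, 6.32 and 6.33), a 2.64-fold difference of the strain means, and the single BUF/MnaMcwi rat measured 7.75. Oas1a was highest in HXB22/Ipcv (7.08, 7.13 and 7.35) and lowest in HXB5/Ipcv (5.71, 5.78 and 6.31), a 2.39-fold difference. Isg15 was highest in WKY/NCrl (6.65, 6.68 and 6.74) and lowest in HXB27/Ipcv (5.23, 5.51 and 5.78), a 2.28-fold difference. In these 3 genes the rats of the end strains did not overlap, which the choice of the ends makes likely. Ifi27 was highest in HXB2/Ipcv (10.93 and 10.97) and lowest in BN/NHsdMcwi (9.45, 9.56 and 9.69), a 2.61-fold difference. Rsad2 was highest in SHR/OlaIpcv (8.57 and 8.76) and lowest in BXH10/Cub (7.13, 7.17 and 7.36), a 2.72-fold difference. Among the IFIT genes, Ifit3 ranged from HXB20/Ipcv (6.21, 6.64 and 6.81) to HXB1/Ipcv (5.10, 5.22 and 5.44) and Ifit2 from BXH9/Cub (7.92, 8.32 and 8.59) to HXB1/Ipcv (7.27, 7.29 and 7.82). HXB1/Ipcv was thus the lowest strain for Ifit2, Ifit3 and Mx2. Among strains with 2 or more rats Bst2 ranged from HXB17/Ipcv (6.22, 5.91 and 5.94 in animals 1 to 3) to FHH/EurMcwi (4.82, 4.83 and 5.02), and the LE/Stm rat, at 6.09, lay above the mean of HXB17/Ipcv (6.02). Bst2 in HXB17/Ipcv stood 0.63 above the other strains (limma adjusted p = 0.0232), and 0.68 above them without the animals numbered 2 (adjusted p = 0.0919). In Ifit3 animal 2 of BXH9/Cub, at 5.72 where its strain mean was 6.49, and the LEXF5/Stm rats, at 6.73 and 5.20, lay equally far from their strain means (0.77), and animal 2 of BXH9/Cub was also the farthest in Mx1 (6.55 against 7.18). Mx1 and Mx2, Ifit2 and Ifit3, and Oas1a and its neighbours have similar sequences, and their levels rest on the quantification's division of shared reads.

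Each strain was next contrasted with the mean of all other strains, for every gene. 84 of the 740 pairs of a member and a strain were called (limma, Benjamini-Hochberg over all gene and strain pairs), or 11.4%, against 1.2% of all such pairs. 1 call, Mx1 in BUF/MnaMcwi, rests on a single rat that is assumed to vary like the rats of other strains. 49 members-in-strains were higher (background 0.651%) and 35 lower (background 0.553%), in 38 strains. Mx2 stood apart in 22 strains, Irf7 in 17, Oas1a in 13, Mx1 and Ifi27 in 9 each, Ifit3, Isg15 and Rsad2 in 4 each, and Ifit2 and Bst2 in 1 each. HXB27/Ipcv had 6 members lower and HXB1/Ipcv 5 lower, while GK/FarMcwi and WKY/NCrl had 5 higher each and HXB22/Ipcv and LEXF11/Stm 4 higher each. The share of all genes called was not taken for single strains, so counts per strain cannot be set against a background. 22 strains had 2 or more called members, and in 20 of them these all lay on one side. The exceptions were MWF/Hsd, which was lower in Mx2 and Ifi27 and higher in Mx1, and BXH5/Cub, which was lower in Mx2 and higher in Rsad2. The largest departures were those of Mx2, which was 0.92 higher (SE 0.120, adjusted p = 1.10e-08) in HXB22/Ipcv and 0.90 higher (SE 0.120, adjusted p = 1.67e-08) in WKY/NCrl. Irf7 was 0.85 higher in SHR/OlaIpcv (SE 0.168, adjusted p = 5.46e-04) and differed from the other strains by -0.70 in HXB23/Ipcv (SE 0.138, adjusted p = 5.10e-04). The count was smaller without the animals numbered 1, 2 and 3, at 28 of 730, 42 of 700 and 38 of 740 pairs. In these fits 58, 58 and 62 strains kept 2 or more rats, and the others 1. The count was 34 in the table of the reconstructed transcriptome and 118 of 450 in the v5 table, which holds fewer strains. For these alternatives the share of all gene and strain pairs was not taken, so their counts cannot be set against 1.2%. In the reconstructed table Irf7 in SHR/OlaIpcv stood 0.30 above the other strains (adjusted p = 0.679), and the call was also lost in the v6 table (0.49, adjusted p = 0.111) and without the animals numbered 1 (0.82, adjusted p = 0.133).

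**Figure D3:**
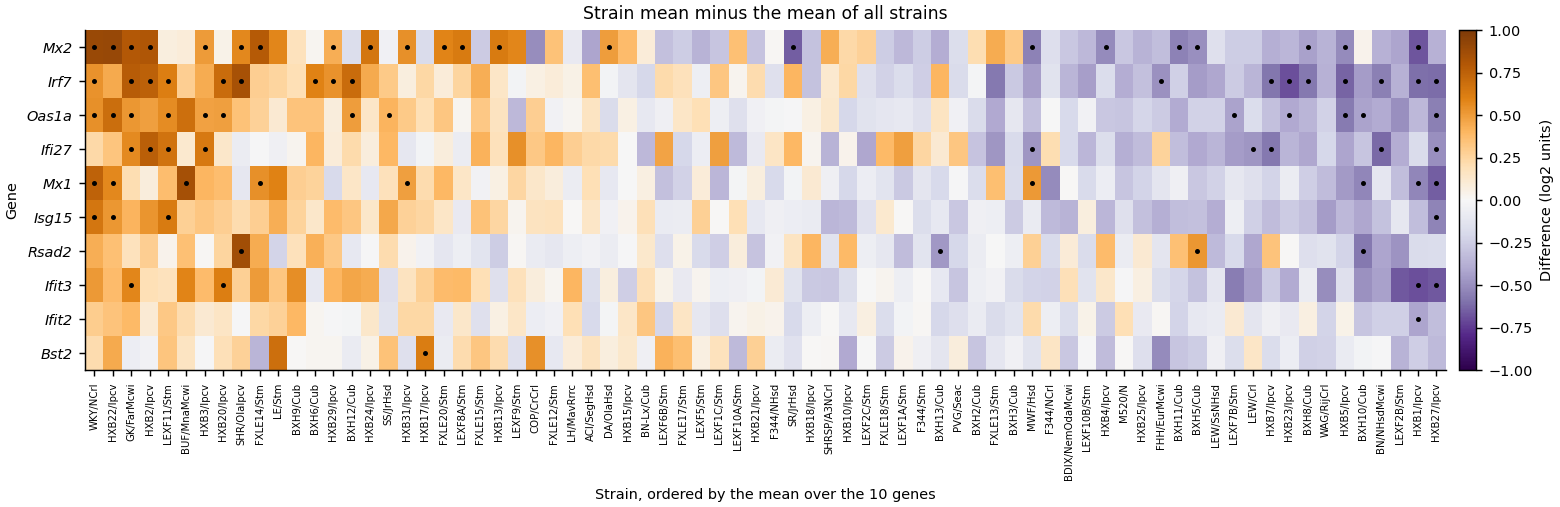
Strain mean minus the mean of all strains in log2 units (color) for the 10 genes (y axis, ordered by R2) in 74 strains (x axis, ordered by the mean over the 10 genes). Dots mark the 84 called pairs; WKY/NCrl, HXB22/Ipcv and GK/FarMcwi lie at the high end and HXB1/Ipcv and HXB27/Ipcv at the low end.

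WKY/NCrl and HXB22/Ipcv were above the mean of all strains in 10 of 10 members, with mean differences of 0.51 and 0.50, and GK/FarMcwi in 9 of 10, with 0.43. HXB27/Ipcv and HXB1/Ipcv were above it in 0 of 10 members, with mean differences of -0.47 and -0.42. BN/NHsdMcwi (0 of 10, -0.35) lay low as well, whereas BN-Lx/Cub lay near the middle (6 of 10, 0.03). Related strains were close in this measure for the LEW strains, with -0.25 in LEW/Crl and -0.23 in LEW/SsNHsd, and SHR/OlaIpcv (0.32) and SHRSP/A3NCrl (-0.05) were further apart. SHR/OlaIpcv came from the Czech institute and SHRSP/A3NCrl did not, so strain and source cannot be told apart for this pair. For BN/NHsdMcwi the paper gives no source.

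Within the 3 subpopulations taken alone, strain effects were called for 10 of 10 members among the HXB/BXH strains (background 19.1%), for 9 of 10 among the inbred strains (background 19.3%) and for 4 of 10 among the FXLE/LEXF strains (background 4.61%). Bst2 was the member not called among the inbred strains (limma adjusted p = 0.280). The 4 called in FXLE/LEXF were Ifi27 (R2 = 0.884), Mx2 (0.809), Irf7 (0.787) and Oas1a (0.751), while Isg15 had an R2 of 0.377 there (limma adjusted p = 0.677). These R2 values are not corrected for the numbers of strains and rats, and are not comparable with those over all strains. Counts for FXLE/LEXF, in which 43 rats stand for 19 strains, changed when rats were left out: 1, 0 and 3 members were called without the animals numbered 1, 2 and 3 (16, 17 and 10 rats), and 6 members had an unadjusted limma p under 0.05 without those numbered 2. In the same leave-outs 7 to 8 members were called among the HXB/BXH strains and 7 to 9 among the inbred strains. For these leave-outs the share of all genes within each subpopulation was not taken, so their counts cannot be set against the backgrounds above. Whether strain effects differ between the subpopulations was not tested.

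The progenitors of the HXB/BXH family differed in 2 members, Irf7 and Rsad2, both higher in SHR/OlaIpcv. Irf7 measured 7.61, 7.72 and 7.02 in the rats of BN-Lx/Cub and 8.52 and 8.48 in those of SHR/OlaIpcv, a difference of 1.05 (SE 0.216, limma adjusted p = 4.22e-04, 2.07-fold). Rsad2 measured 7.95, 7.92 and 7.90 against 8.76 and 8.57, a difference of 0.74 (SE 0.208, adjusted p = 0.0200, 1.67-fold). The groups did not overlap in either gene. The BN-Lx/Cub rat at 7.90 in Rsad2 was the mean of 2 libraries at 7.61 and 8.19. 2 of 10 members were called, against 4.51% of all genes, of which 1.87% were higher and 2.63% lower in SHR/OlaIpcv. Mx2 (0.49, SE 0.188, adjusted p = 0.119) and Oas1a (0.44, SE 0.182, adjusted p = 0.146) did not pass. The Irf7 call was lost in the v6 table (0.64, adjusted p = 0.130) and in the reconstructed table (0.56, adjusted p = 0.510). The Rsad2 difference was 0.66 (adjusted p = 0.479) without the animals numbered 1, which leaves 1 SHR/OlaIpcv rat, 0.19 (adjusted p = 0.613) in the v5 table, where Mx2 was called beside Irf7 (0.52, adjusted p = 0.0209), and 0.40 (adjusted p = 0.331) with the level of red-cell genes as a covariate.

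The 30 recombinant strains were set beside the progenitor means, which rest on 2 and 3 rats, as a description with no test. For Irf7, 18 strain means lay between the progenitor means, 12 below both and 0 above, and for Rsad2 12 lay between, 18 below both and 0 above. Of these, 2 strain means of Irf7 and 17 of Rsad2 lay below every progenitor rat. The lowest progenitor rat in Rsad2, BN-Lx/Cub animal 3 at 7.90, was the mean of 2 libraries at 7.61 and 8.19. How many of the 17 lay below both libraries was not counted. For Isg15, whose progenitor means were close (6.23 and 6.26), 20 strains lay below both and 10 above both, but only 13 and 2 lay beyond every progenitor rat. For Ifi27, 15 strains lay above both (9.85 in BN-Lx/Cub and 10.11 in SHR/OlaIpcv), 9 between and 6 below, and the 15 lay above every progenitor rat. The highest of these rats, SHR/OlaIpcv animal 1 at 10.11, was the mean of 12 libraries that ran from 9.29 to 10.64. Within that range lay 26 of the 30 strain means, which were at 10.41 or lower. The 88 rats of the recombinant strains had 1 library each. For Mx2 the strain means ran from 9.66 to 11.24, with 18 strains below both progenitors, 8 between and 4 above, of which 11 and 3 lay beyond every progenitor rat. In the FXLE/LEXF family Mx2 and Ifi27 each had a stretch with no strain. For Mx2, 10 strain means lay at 10.08 or lower and 9 at 10.41 or higher, with F344/Stm at 10.08 ± 0.157 (SD, n = 3) and the LE/Stm rat at 10.92. For Ifi27, 11 lay at 10.27 or lower and 8 at 10.58 or higher, with F344/Stm at 10.43 ± 0.234 (SD, n = 3) and the LE/Stm rat at 10.14. This is the rat with the high liver genes, and whether its levels are those of brain alone was not tested. These gaps (0.32 and 0.31) are descriptions of 19 means and were not tested.

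Co-variation was measured first between rats of the same strain, where genotype is shared. After the strain mean was taken from each of 192 rats in 69 strains, 30 of the 45 member pairs were correlated (permutation test within strains, 100000 permutations, two-sided, Benjamini-Hochberg over 45 pairs), 28 of them positively, with a median Pearson r of 0.317. Irf7 and Oas1a had the highest correlation (r = 0.714, Spearman rho = 0.663, permutation p = 1e-05, the smallest these permutations can give, adjusted p = 3.21e-05), and r was 0.685 without the 2 rats farthest from the median of Irf7. Ifit3 and Mx2 followed (r = 0.682, rho = 0.654, 0.646 without the 2 farthest rats), with Ifit2 and Ifit3 (r = 0.681, rho = 0.661, 0.689 without the 2 farthest rats), at the same smallest permutation p. By Pearson's r there were 2 negative calls: Rsad2 and Bst2 (r = -0.228, rho = -0.215, -0.241 without the 2 farthest rats, adjusted permutation p = 0.0202) and Ifit2 and Ifi27 (r = -0.226, rho = -0.203, -0.199 without the 2 farthest rats, adjusted permutation p = 0.0424). By Spearman's rho Ifit2 and Ifi27 did not pass (adjusted permutation p = 0.0506), whereas Ifit3 and Bst2 (rho = -0.243, r = -0.201, adjusted permutation p = 0.0183 for rho) and Mx2 and Bst2 (rho = -0.203, r = -0.201, 0.0460) did. The r of Ifit2 and Ifi27 was -0.143 in HXB/BXH, 0.210 in FXLE/LEXF and -0.623 in the inbred strains. For comparison, the smallest called correlation was 0.214 in size, and of all pairs of the 20859 genes 18.6% were at or above 0.214 and 18.3% at or below -0.214, with a median r of -0.001; among member pairs 64.4% and 4.44% were. With the sequencing batch removed together with the strain, the median r was 0.304, and r was 0.657 for Irf7 and Oas1a and 0.670 for Ifit3 and Mx2. These p-values take the rats of a strain as exchangeable.

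Across the 74 strain means 41 of 45 pairs were correlated by the same permutation test over strains (adjusted over 45 pairs), all 41 positively, with a median r of 0.511. The smallest called correlation was 0.281, and of all gene pairs 11.7% were at or above it and 11.3% at or below its negative. The r over strain means was above that within strains in 38 of 45 member pairs, a difference that was not tested, and Ifit3 and Mx2 were among the exceptions (0.569 and 0.682). Irf7 and Oas1a were again the closest (r = 0.842, rho = 0.856, permutation p = 1e-05, the smallest possible, and r = 0.836 without the 2 farthest strains). Oas1a and Isg15 had r = 0.819 (rho = 0.796, 0.813 without the 2 farthest strains) and Irf7 and Isg15 r = 0.760 (rho = 0.750, 0.757 without them), both at that smallest permutation p. Within subpopulations the strain-mean r of Irf7 and Oas1a was 0.872 in HXB/BXH, 0.755 in FXLE/LEXF and 0.858 in the inbred strains. The within-strain r of this pair was 0.851, 0.443 and 0.559 in the same order. Recombinant strains share progenitors and libraries of a batch share a run, so strains are not fully independent points.

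2 sets of members stood out in the within-strain correlations, and since they were picked after the values were seen they are given as a description. Irf7, Oas1a, Isg15 and Ifi27 had a median r of 0.561 over their 6 pairs (0.372 to 0.714), and Ifit2, Ifit3, Mx1 and Mx2 a median of 0.606 (0.424 to 0.682). The 16 pairs between the sets had a median of 0.264 (-0.226 to 0.501). Between libraries of the same rat, where the library and its batch differ, the medians were 0.590 and 0.611 within the sets and 0.040 between them. Irf7 and Ifit2 had r = 0.005 within strains and -0.368 between libraries of 1 rat, and the within-strain value was 0.140 in HXB/BXH, 0.366 in FXLE/LEXF and -0.453 in the inbred strains. In the strain means the division was fainter, with medians of 0.718 and 0.588 within the sets and 0.521 between. The division was not present in each family: in the HXB/BXH rats the within-strain medians were 0.715 and 0.693 within the sets and 0.370 between them, in the inbred strains 0.423, 0.449 and 0.011, but in the FXLE/LEXF rats 0.291 for the set of Irf7, 0.628 for the other and 0.328 between. With the sequencing batch removed together with the strain, the within-strain medians were 0.524 and 0.618 within the sets and 0.316 between them. The same division is present between libraries made from 1 rat. Beyond this fit of batch, the part that library and batch have in the within-strain correlations was not separated from that of the rats.

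**Figure D4:**
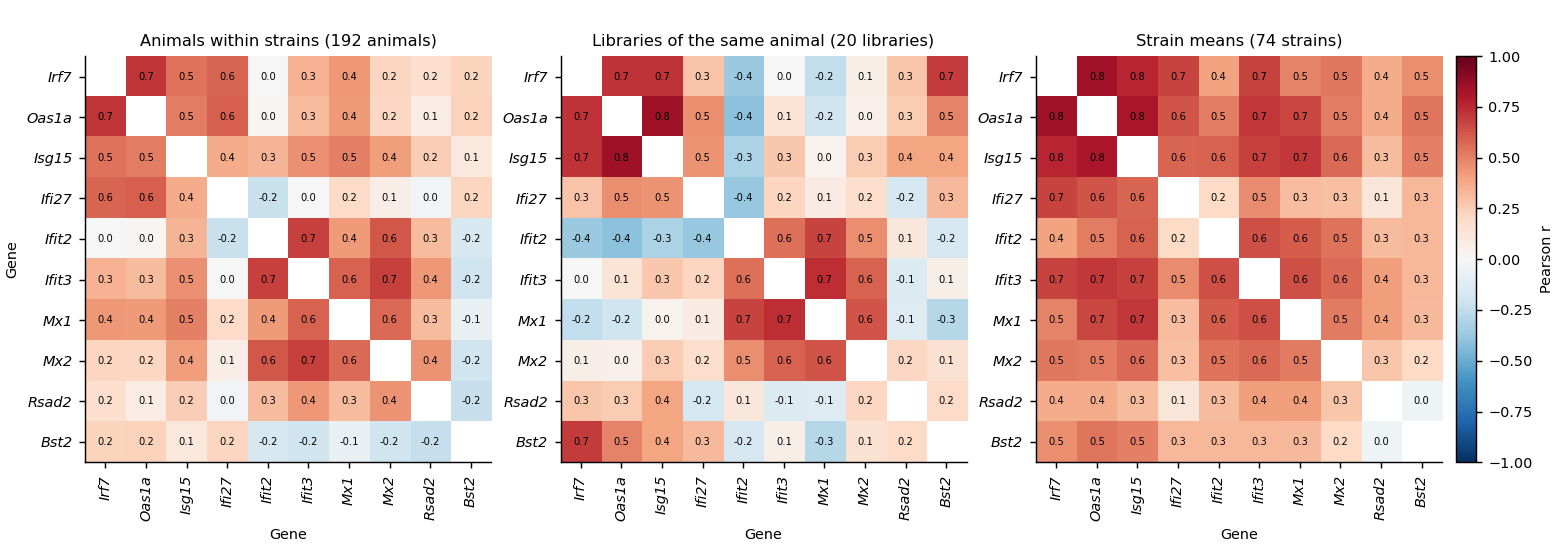
Pearson r (color and number) between the 10 genes on both axes, for rats after removal of the strain mean (left, 192 rats), for repeated libraries after removal of the rat's mean (middle, 20 libraries of 3 rats) and for strain means (right, 74 strains). Blocks of Irf7, Oas1a, Isg15 and Ifi27 and of Ifit2, Ifit3, Mx1 and Mx2 are seen in the left and middle panels, and nearly all pairs are positive in the right panel.

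The genes nearest to each member over all genes above the lower quartile of mean level were taken by their within-strain r over the 192 rats, given as a description. Irf7 was nearest to Oas1a (r = 0.714), Usp18 (0.620), the ISG15 protease that dampens interferon signalling, and Irf9 (0.619), the DNA-binding part of the interferon complex. Isg15 was nearest to Dhx58 (0.556), a cytoplasmic RNA sensor, Irf7 (0.542) and Rtp4 (0.537), and Mx1 to Rtp4 (0.628), Ifit3 (0.590) and Ifi44 (0.578). Ifit3 was nearest to Mx2 (0.682), Ifit2 (0.681) and Parp9 (0.673). For these members the near genes are themselves known interferon-stimulated genes. Ifit2 was nearest to Eif2ak2 (0.794), the RNA-activated kinase PKR, but then to Usp47 (0.790) and Supt16h (0.785), which are no part of the lists of interferon genes used here, and Mx2 to Eif2ak2 (0.696), Parp9 (0.696) and Mphosph6 (0.693). Ifi27 was nearest to Mrpl28 (0.716), Tmem208 (0.711) and Rplp0 (0.709), genes of mitochondrial and cytoplasmic ribosomes and of the endoplasmic reticulum, and Bst2 to Rrbp1 (0.714), Pgd (0.708) and Raly (0.704). Oas1a was nearest to Irf7, LOC108351606 (0.623) and Ifi27 (0.594). Among the genes nearest to Rsad2 were Hbb (0.639), a beta globin, and LOC120093065 (0.637).

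Lists of cell type markers were then set beside the members, 100 relations in all, with the mean level of each list, and 20 were called within strains (Benjamini-Hochberg over the 100). The smallest called r was 0.241 in size, and 21 of the 100 member relations reached it, against a mean over the lists of 22.9% of all other genes, so that the number of relations is near that of any gene. Rsad2 was the 1 member called with 7 red-cell genes, with which 22.1% of all other genes were past 0.241: r = 0.545 within strains over 192 rats (rho = 0.499, permutation p = 1e-05, the smallest possible, adjusted p = 2e-04), 0.502 without the 2 rats of most extreme red-cell level, 0.611 across strain means and 0.439 between libraries of the same rat. Each of the 7 was positively correlated with Rsad2 within strains, from Hba-a3 (0.354) to Hbb (0.639). The mean red-cell level ranged from 9.17 to 11.7 over the rats, and SHR/OlaIpcv, highest in Rsad2, was the fourth highest strain in it at 11.2, BN-Lx/Cub being at 10.3 and BXH10/Cub, lowest in Rsad2, at 10.1. With that level as a covariate the strain effect on Rsad2 was still called (R2 = 0.646 of the variance left by that level, limma adjusted p = 1.58e-07). SHR/OlaIpcv then stood 0.60 above the other strains (limma adjusted p = 0.00912), where it stood 0.88 above them without the covariate (adjusted p = 1.58e-04).

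**Figure D5:**
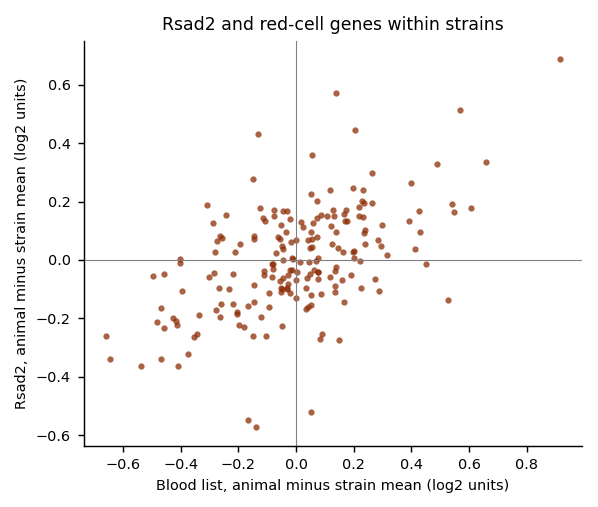
Rsad2 level (y axis) against the mean level of 7 red-cell genes (x axis), both as the rat minus its strain mean in log2 units; each of 192 points is a rat. Rats with more red-cell RNA than their strain had more Rsad2 (r = 0.545).

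Of the relations with microglial genes 4 of 10 were called, and 39.2% of all other genes had an r past 0.241 with this list. Within strains the r with 12 microglial genes was 0.480 for Ifi27 (rho = 0.473, adjusted permutation p = 2e-04), 0.397 for Irf7 (rho = 0.399, 3.33e-04), 0.304 for Oas1a (rho = 0.275, 0.0124) and 0.278 for Isg15 (rho = 0.242, 0.0120), and without the 2 farthest rats it was 0.472, 0.423, 0.317 and 0.280. The other members did not pass: r was 0.249 for Mx2 (adjusted permutation p = 0.0704), 0.223 for Mx1 (0.0847), 0.122 for Ifit3 (0.446), 0.091 for Bst2 (0.624), -0.009 for Rsad2 (0.936) and -0.074 for Ifit2 (0.653). Mx2 and Mx1 were thus close to Isg15, and whether the members differ in this relation was not tested. The 8 neuronal genes were negatively correlated with 5 members, where 23.8% of all other genes were at or below -0.241 with this list and 24.0% at or above 0.241, with r = -0.457 for Mx2 (rho = -0.430), -0.454 for Mx1 (rho = -0.447), -0.352 for Rsad2 (rho = -0.396), -0.307 for Ifit3 (rho = -0.290) and -0.277 for Ifit2 (rho = -0.283), at adjusted permutation p-values of 2e-04, 2e-04, 0.00122, 0.0221 and 0.0124, and without the 2 farthest rats -0.442, -0.460, -0.377, -0.313 and -0.272. For Bst2 the relation to neuronal genes was positive (r = 0.437, rho = 0.407, adjusted permutation p = 2e-04, and 0.428 without the 2 farthest). Endothelial genes, with which 15.6% of all other genes were past 0.241, were correlated with Ifit2 (r = 0.407, rho = 0.323, adjusted permutation p = 0.00100, 0.366 without the 2 farthest rats), Ifit3 (r = 0.367, rho = 0.267, 0.0164, 0.283 without them) and Mx2 (r = 0.344, rho = 0.275, 0.0124, 0.268 without them). Astrocyte genes, with which 25.7% of all other genes were past 0.241, were correlated with Bst2 (r = 0.373, rho = 0.312, adjusted permutation p = 8.57e-04, 0.339 without the 2 farthest rats) and Ifit2 (r = 0.296, rho = 0.272, 0.0177, 0.284 without them). Meningeal genes, with which 42.0% of all other genes were past 0.241, were correlated with Bst2 (r = 0.323, rho = 0.296, adjusted permutation p = 0.00170, 0.318 without the 2 farthest rats) and Irf7 (r = 0.274, rho = 0.325, 0.0124, 0.253 without them). The remaining called relations were those of Mx2 with oligodendrocyte genes (r = 0.331, rho = 0.329, 0.00473, 0.329 without them) and of Ifit2 with choroid plexus genes (r = 0.241, rho = 0.247, 0.0459, 0.275 without them). With these lists 20.8% and 5.94% of all other genes were past 0.241. By this permutation test 0 of 10 relations were called for lymphocyte or for liver genes, with which 8.8% and 1.33% of all other genes were past 0.241. With the microglial level as a covariate 10 of 10 members kept a called strain effect, against 51.3% of all genes. The R2 of Ifi27 was then 0.805, as a share of the variance left by that level. It is not comparable with the R2 without a covariate. The part these lists have in the members' levels was not tested beyond these fits.

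Other genes of the pathway were counted from lists of interferon genes. Of 24 measured genes of interferon sensing and signalling 15 had a strain effect (62.5%), and of 64 other measured interferon-stimulated genes 52 did (81.25%), against 37.3% of all genes. The median R2 was 0.496 and 0.574 in the lists. The highest R2 values were those of Ifit1 (0.944), Ifi44l (0.844), Oas1b (0.830), Oasl2 (0.766), Usp18 (0.758) and Slfn2 (0.745). The strain mean of Ifit1, another IFIT gene, spanned 4.42 log2 units, from 3.36 in the single LEXF2B/Stm rat to 7.78 in GK/FarMcwi, where the widest span of a member was 1.58 units (Mx2). Ifi44l was lowest in SHR/OlaIpcv at 4.40, the strain highest in Irf7, and its strain means had a correlation with those of Irf7 of 0.017, where Usp18 had 0.780. At the other end were Jak1 (R2 = 0.405, limma adjusted p = 0.429), the kinase of the interferon receptor, Socs1 (0.381, 0.454), its inhibitor, and Phf11 (0.373, 0.505). The receptor subunit Ifnar1 had an R2 of 0.666 but a range of strain means of 0.49 units. GAAANNGAAA was held by 2 of 19 promoters of the signalling list and by 27 of 59 of the other list.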

How the data were processed

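Per the labels, the authors depleted rRNA, made TruSeq stranded total RNA libraries from whole brain, trimmed reads with Cutadapt 1.9.1, removed rRNA reads with Bowtie2 2.3.4.3 (2.4.5 in 39 samples), aligned with HISAT2 2.1.0 (2.2.1), reconstructed transcripts with StringTie 1.3.5 (2.2.1) and quantified with RSEM 1.3.1 (1.3.3). The labels name rn6 for 148 of 232 samples. The deposited values of the earliest release (v5) are on a log2 scale, a regularized log after removal of 1 unwanted-variation factor by the authors. For the v7.1 RefSeq table used here the transformation, the unwanted-variation step and the build are not given in the sources used here, and its values were taken to be log2 as in v5. No counts were used, so the depth behind each value is unknown and no counting interval was given. 0 columns were left without a sample; columns were matched by the samples' descriptions, and for FXLE12 (rat numbers) and LEXF9 (batch) the column name differs from the title, which touches the batch fits and the leave-outs by number. Removal of unwanted variation by the authors may also have taken out, or left in, variation between batches.

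73 spike-in rows were left out. Libraries of 1 rat were averaged. limma 3.58.1 (R 4.3.3) was fitted to all genes, with strain as the only factor, for the F-test of strain, the contrast of the HXB/BXH progenitors and each strain against the mean of the others, with calls at a false discovery rate of 0.05. Within-strain and strain-mean correlations were tested with 100000 permutations (NumPy 2.4.6). The self-test on simulated data met its set limits, which asked for only a part of the genes shifted in 1 strain to be found. Its simulated rats had independent errors, with no batch, repeated libraries or relatedness. The genes named were the members, the 6 called genes of highest and the 3 genes of lowest R2 in the wider lists, the 3 nearest genes and the end strains of each member; 1 nearest gene is not reported here. Ifnar1, the strains next to the end strains, BXH9/Cub for Irf7 and the related strains set side by side were named after their values were seen. The members and lists were chosen with earlier results of these data known. Where nothing says that rats of a strain came from separate litters, p-values measure only the spread between these rats. 5 values above 30 in 3 other genes were kept. Alternatives fitted batch or the replicate number, left out animals, low genes or doubtful libraries, or used the v6 and v5 Ensembl tables and the v7.1 table of reconstructed genes, each normalized separately by the authors.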

Additional observations from a re-analysis of the deposited data

How the results depend on the processing

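Every member kept its strain effect with the sequencing batch as a covariate, with the blood or microglia lists as covariates (both added after the data were seen), in the v6 and v5 tables and without LE/Stm and LEW/Crl, whereas 8 to 9 did when animals were left out and 9 in the reconstructed table. The batch fits used 1 library per rat, with which strains and batches form 3 unconnected groups, so the contrast of a strain with all others and the correlations of strain means were not run with batch. All libraries together form 1 group, and that fit was not run either. FXLE/LEXF strains are not in the v5 table used here. The number of genes with a strain effect was 7785 (37.3%), and became 7425 (35.6%) with 1 library per rat, 12240 (58.7%) with the sequencing batch as a covariate as well, 10709 (51.3%) with the microglia list, 11566 of 18161 (63.7%) in the v5 table, 14096 of 71024 (19.8%) in the reconstructed table and 3003 to 6065 (14.4% to 29.1%) when the animals of one number were left out. Over the same leave-outs the members called were 0 to 3 among FXLE/LEXF strains, 1 to 2 for the HXB/BXH progenitors and 28 to 42 in the member and strain pairs, and the wider interferon genes called were 40 to 50. In the reconstructed table the members called among FXLE/LEXF strains were 2, the pairs 34, and the median within-strain r was 0.455. For the HXB/BXH progenitors 1 member was called with the batch number of the titles or the blood list as a covariate. 0 were called by limma in the v6 table (3 at an unadjusted p under 0.05) and in the reconstructed table (0 at an unadjusted p under 0.05). Under these alternatives the share of all genes was not taken within subpopulations, for the progenitors or for the pairs, so these counts have no background beside them. The cause of these changes was not tested, except that leaving out animals leaves fewer of them. Differences of SHR/OlaIpcv from BN-Lx/Cub that were not called changed sign: Ifit3 was -0.018 with the sequencing batch, -0.24 to 0.32 when animals were left out and -0.021 in the reconstructed table. Mx1 was 0.018 in the v5 table. Oas1a was -0.15 in the v5 and -0.12 in the reconstructed table, and Bst2 was -0.051 in the latter. Isg15 was -0.11 with 1 library per animal, -0.14 to 0.13 when animals were left out, -0.24 in the v6, -0.39 in the v5 and -0.52 in the reconstructed table, and -0.053 with the blood list.

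Animal numbers were not shown to pair rats across strains: deviations from the strain mean correlated at a mean of 0.0171 between rats of the same number and -0.00825 otherwise, and 55 of 192 rats were closest to their own number. With the replicate number as a block, 10 members, 7985 genes and 69 wider interferon genes had a strain effect, 9 members did so among HXB/BXH strains, 4 among FXLE/LEXF and 9 among inbred strains, 2 members differed between the progenitors, 85 pairs stood apart, and the median correlations were 0.317 within strains and 0.506 over strain means. With this block the share of all genes was not taken within subpopulations, for the progenitors or for the pairs.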

Other observations

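The repeated SHR/OlaIpcv libraries, which were present in 15 of 17 batches, ran against the other strains sequenced with them, in the members as in the whole table. The deviation of the SHR/OlaIpcv library from its rat's mean was correlated, over the 14 batches with 4 or more libraries of other strains, with the mean level of the other strains of that batch. Over all 20859 genes the median of this r was -0.668 (quartiles -0.754 and -0.546), and the median of the members was -0.722. 7 of 10 members passed a permutation test (Benjamini-Hochberg over 10), from Bst2 (r = -0.640, rho = -0.635, adjusted permutation p = 0.0180, -0.668 without the 2 farthest batches) to Mx1 (r = -0.882, rho = -0.811, adjusted permutation p = 3e-04, -0.761 without them), and 57.0% of all genes had an r at or below -0.640. It did not pass for Irf7 (r = -0.361, rho = -0.407), Mx2 (r = -0.332, rho = -0.209) and Rsad2 (r = 0.343, rho = 0.174), with adjusted permutation p = 0.244 for each, and without the 2 farthest batches r was -0.634, 0.033 and -0.339. The part this has in the strain means was not tested.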
